A study of Mus musculus with 4 samples.

Results

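Eya1 (ENSMUSG00000025932) is 1 of the 32285 genes counted in 4 single-cell libraries of mouse bone marrow, and its row was found by its symbol in the deposited feature lists. The gene was chosen by its count over all cells, higher in the Mll3/4-deleted library than in control while most stem cell genes were not, so that contrast is given as a description and supports nothing. The cells were Kit-positive and carried CD45.2, and were collected from transplanted mice at 10 weeks. A control was set beside deletion of Mll3, of Mll4 and of both (Mll3/4), and each of these 4 groups is 1 library. The genes Kmt2c (Mll3) and Kmt2d (Mll4) encode histone methyltransferases that act on lysine 4 of histone H3. The strains, the sex and age of the mice, the Cre driver and the number of donors or recipients pooled are not given in the sources used here. The series title names the question as how far MLL3 and MLL4 stand in for each other in keeping stem cell and myeloid identity and in opposing B-cell priming.

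Eya1 encodes one of the vertebrate eyes absent proteins, transcriptional coactivators that bind no DNA themselves and also carry a phosphatase domain. Eya proteins are brought to DNA by homeodomain proteins, work with Dach and Pax proteins in the Pax-Six-Eya-Dach network of ear, kidney and muscle development, and dephosphorylate the terminal tyrosine of histone H2AX. In blood, Eya1 is known as a gene of stem and early progenitor cells, and as a gene that is active in leukaemias with rearranged MLL1 (Kmt2a).

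Each value below is a count of UMIs, the tags that mark single captured RNA molecules, added up within a library or a cell class and scaled to 1000000 gene UMIs of the same cells (CPM). With 1 library in a group there is no replicate check and no test, and the 95% intervals cover counting error only. After filtering, 5350 to 7146 cells per library were kept, with a median of 15754 UMIs per cell in control, 16963.5 in the Mll3, 5142 in the Mll4 and 9965 in the Mll3/4 library. Kmt2c followed the labels, at 47.9 CPM in control, 27.2 in the Mll3, 59.2 in the Mll4 and 34.8 in the Mll3/4 library. Over all cells Kmt2d did not, at 25.8, 21.6, 25.0 and 24.7 CPM in the same order. In the B-cell progenitor-like cells described below Kmt2d was at 40.2 CPM (33.6 to 47.8) in control. There the Mll3/4 library was at 24.7 CPM (23.6 to 25.9) and the Mll3 library at 25.3 CPM (19.9 to 31.9). The Mll4 library was at 16.8 CPM (6.18 to 36.7) on 6 UMIs. The deleted exons are not given in the sources used here and 3′ counts need not cover them, so a library is named below by its label (for example Mll3-labelled). All comparisons use the same control library. The Mll4-labelled library also stood apart in Xist, at 0.519 CPM against 954.8 to 1839 CPM in the other libraries. Xist is the RNA of the inactive X chromosome, and the part of this difference in the Eya1 values was not tested. From 42 to 60 barcodes per library also occurred in another library.

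Eya1 lies on chromosome 1 from 14168954 to 14310235 on the minus strand (GRCm38, GENCODE M21), a gene of 141282 bases with 9 annotated transcripts, 8 of them coding. Over all kept cells, 426 Eya1 UMIs were counted in control, 692 in the Mll3-labelled, 156 in the Mll4-labelled and 7230 in Mll3/4-labelled cells. These are 2.77 CPM (2.52 to 3.05) in control, 5.09 CPM (4.72 to 5.48) in the Mll3-labelled, 4.76 CPM (4.04 to 5.57) in the Mll4-labelled and 93.1 CPM (91.0 to 95.3) in Mll3/4-labelled cells. Control was the lowest, the single deletions could not be told apart from each other within their intervals, and the Mll3/4-labelled library stood far above all of them. The ratios to control were 1.83-fold (1.62 to 2.08), 1.72-fold (1.42 to 2.07) and 33.6-fold (30.4 to 37.1). On the log2 scale with 1 CPM added to both libraries, which is the scale of all log2 ratios below, they were 0.69, 0.61 and 4.64. Against these, 0.199% of 14550 measured genes were at least 2-fold higher and 0.467% lower in Mll3-labelled cells, and 5.74% of 14452 were higher and 2.91% lower in Mll4-labelled cells. For Mll3/4 this ratio was the 88th highest of 15158 genes with at least 20 counts in either library, of which 12.0% were at least 2-fold higher and 11.7% at least 2-fold lower than in control. The genes just above it were Sh3gl3, Ly6d, Lef1, Bmf and Pcdh19 (log2 ratios of 4.71, 4.71, 4.70, 4.68 and 4.66), and just below it were Efna5, Epcam, Slamf6, Cbr3 and Vipr1 (4.62, 4.61, 4.59, 4.59 and 4.57).

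The cell types of the libraries differed, so Eya1 was next read within classes. Cells of the 4 libraries were clustered without Eya1 among the clustering genes, and clusters were named from fixed markers as stem and multipotent progenitor-like (HSC/MPP-like), B-cell progenitor-like and so on. Of the 6917 Mll3/4-labelled cells, 6831 (98.8%) were B-cell progenitor-like, and they held 99.8% of that library's Eya1 UMIs. In control, 6.59% of cells were B-cell progenitor-like and held 1.88% of the Eya1 UMIs, while the HSC/MPP-like cells, 19.9% of cells, held 54.2%. HSC/MPP-like cells also held 50.3% of the Eya1 UMIs of the Mll3-labelled and 50.6% of those of the Mll4-labelled library. Most Eya1 UMIs thus came from HSC/MPP-like cells in 3 libraries and from B-cell progenitor-like cells in the Mll3/4-labelled one.

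**Figure D1:**
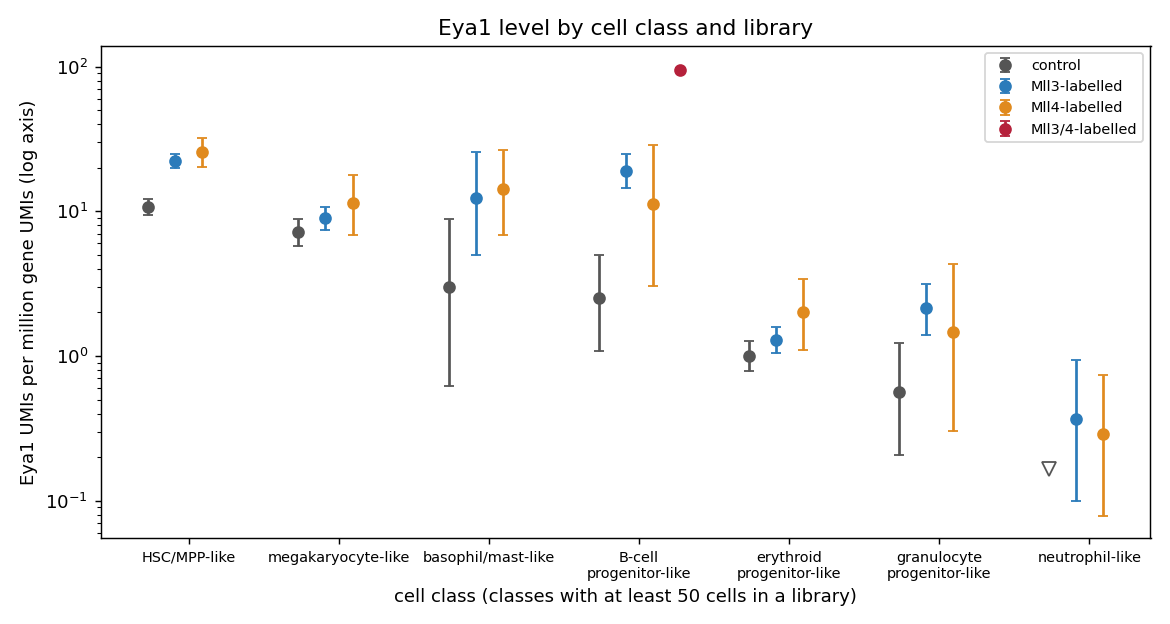
Eya1 UMIs per 1000000 gene UMIs (log axis) by cell class and library (at least 50 cells), with exact 95% Poisson intervals. The open triangle marks a class with no Eya1 UMI, at the level that 3 UMIs would give. T/NK/innate lymphoid-like, dendritic-like and unnamed cells are not shown. HSC/MPP-like cells are the highest class of control at 10.8 CPM, and the B-cell progenitor-like cells of the Mll3/4-labelled library stand above every other point at 95.1 CPM.

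In control, HSC/MPP-like cells had the highest Eya1 level, 10.8 CPM (9.43 to 12.3), followed by megakaryocyte-like cells at 7.19 CPM (5.79 to 8.83). Basophil/mast-like cells at 3.01 CPM (0.62 to 8.79) and B-cell progenitor-like cells at 2.51 CPM (1.09 to 4.95) came next, and neither differed from its neighbour in the order beyond counting error. Erythroid progenitor-like cells were at 1.01 CPM (0.789 to 1.27) and granulocyte progenitor-like cells at 0.562 CPM (0.206 to 1.22), with overlapping intervals. The 50 T/NK/innate lymphoid-like cells held no Eya1 UMI, which allows up to 9.98 CPM, so their place in the order is open. Neutrophil-like cells held no Eya1 UMI among 18213854 gene UMIs, which allows up to 0.165 CPM, and 0 of 1317 cells with a UMI, which allows a share of up to 0.228%. Of these 1317 cells, 1257 lay in cluster 11 (Chil3, Ngp, Camp), in which 99.95% of cells had a UMI of the division gene Mki67, so the control value is mainly that of a cluster with division transcripts. In the other libraries neutrophil-like cells were also low, at 0.367 CPM (0.10 to 0.939) in the Mll3-labelled and 0.288 CPM (0.0784 to 0.737) in Mll4-labelled cells, most of which lay in clusters 15 and 17 instead.

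Among HSC/MPP-like cells, Eya1 was at 10.8 CPM in control (231 UMIs, 1423 cells), 22.2 CPM (19.96 to 24.7) in Mll3-labelled cells (348 UMIs, 1025 cells) and 25.7 CPM (20.3 to 32.0) in Mll4-labelled cells (79 UMIs, 527 cells). Both single deletions were above control by more than counting error, 2.06-fold (1.74 to 2.45) and 2.38-fold (1.82 to 3.09), and their own ratio was 0.866 (0.677 to 1.12). The class is made of cluster 2, led by Ly6a, Procr, Hlf and Mecom, and of cluster 10, in which Pttg1 and Hist1h2ap are among the leading genes. The order was the same in both, at 11.3, 24.2 and 26.7 CPM in cluster 2 and 9.49, 18.9 and 24.3 CPM in cluster 10 for control, Mll3-labelled and Mll4-labelled cells. The Mll3 log2 ratio of 0.98 was the 38th highest of 12007 measured genes, of which 0.275% were at least 2-fold higher and 0.616% lower. The Mll4 log2 ratio of 1.18 was only the 226th highest of 11920, with 3.75% of genes at least 2-fold higher and 2.47% lower. Scaling by trimmed means in place of total UMIs shifted all Mll4 ratios of this class by -0.23 and left Eya1 at 0.96. At a finer clustering, 265 of the 536 Mll4-labelled HSC/MPP-like cells lay in a cluster with 1 control and 2 Mll3-labelled cells, led in part by H2-Eb1, H2-Aa and Cd74. Eya1 was at 28.2 CPM (19.6 to 39.2) in those 265 cells and at 23.7 CPM (17.2 to 31.8) in the other Mll4-labelled cells of the class. The Mll3/4-labelled library had 13 HSC/MPP-like cells with 1 Eya1 UMI among 276010 gene UMIs, so no level can be compared there.

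The remaining classes of the single deletions were higher than control as well, by different amounts. Of the 6 named classes with at least 50 cells and with Eya1 UMIs in control, all 6 were above control in Mll3-labelled cells, 3 of them with an interval above 1. In Mll4-labelled cells all 6 were above control, again 3 with an interval above 1. The median log2 ratio of all genes in these classes was -0.09 to -0.03 for Mll3 and 0.10 to 0.25 for Mll4. At least 2-fold higher were 0.180% to 0.617% of genes for Mll3 and 3.75% to 10.3% for Mll4. The part of this general shift in the Mll4 count was not tested. Neutrophil-like cells had 0 UMIs in control and 4 in each single deletion, so no fold is given. In the Mll3-labelled library, megakaryocyte-like cells were at 8.93 CPM, 1.24-fold above control (0.936 to 1.65), and erythroid progenitor-like cells at 1.29 CPM, 1.29-fold (0.935 to 1.77). The fold in HSC/MPP-like cells was 1.66 times the megakaryocyte fold (1.21 to 2.29) and 1.61 times the erythroid fold (1.13 to 2.28), a difference chosen after the values were seen and judged on counting error only. Granulocyte progenitor-like cells were made of cluster 4 and of cluster 6, whose leading genes include the monocyte genes F13a1 and Ccr2 beside Elane and Prtn3. In cluster 4 the Eya1 level was 0.379 CPM for control and 2.80 CPM for Mll3-labelled cells, on 2 and 15 UMIs, and in cluster 6 it was 0.742 and 1.62 CPM, on 4 and 11 UMIs. Basophil/mast-like cells were at 12.4 CPM in Mll3-labelled and 14.3 CPM in Mll4-labelled cells, on 7 and 10 UMIs.

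B-cell progenitor-like cells showed the widest spread between libraries. Control had 8 Eya1 UMIs in 471 such cells, at 2.51 CPM (1.09 to 4.95), the Mll3-labelled library 55 in 369 cells, at 19.1 CPM (14.4 to 24.9), the Mll4-labelled library 4 in 143 cells, at 11.2 CPM (3.06 to 28.7), and the Mll3/4-labelled library 7218 in 6831 cells, at 95.1 CPM (92.9 to 97.3). The control and Mll3-labelled intervals did not overlap, the Mll4-labelled interval overlapped both, and the Mll3/4-labelled interval was above all 3. These cells are nearly all of the library whose level chose the gene, so the Mll3/4 contrast is a description here as well. The folds over control were 7.60 (3.60 to 18.5), 4.47 (0.984 to 16.7) and 37.8 (19.2 to 87.6), the last one on 75912086 against 3181914 gene UMIs. The Mll3/4-labelled level was also 4.98-fold (3.82 to 6.62) above that of Mll3-labelled B-cell progenitor-like cells, and 8.83-fold (7.74 to 10.1) above that of control HSC/MPP-like cells. In control the B class was at 0.233 (0.0996 to 0.468) of the HSC/MPP-like level, and in Mll3-labelled cells at 0.859 (0.634 to 1.14), so that there the classes could not be told apart. With B cells taken by their marker transcripts in place of clusters, the Mll3 log2 ratio was 1.65 (70 against 15 UMIs) and the Mll4 log2 ratio 0.88 (4 against 15 UMIs), against 2.52 and 1.80 by clusters.

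The log2 ratio of 2.52 in Mll3-labelled B-cell progenitor-like cells was the second highest of 8869 measured genes, after the immunoglobulin gene Iglc1 (3.68) and before Pttg1 (2.39), the securin gene of dividing cells. Of those genes, 0.417% were at least 2-fold higher and 1.89% lower. The Mll3/4 log2 ratio of 4.77 was the 27th highest of 13459, with 9.46% of genes at least 2-fold higher and 7.39% lower. Just above it were Ntn1, Crisp1, Ighv1-75, Cbr3 and Spats2l (5.01, 4.89, 4.83, 4.81 and 4.78), and just below it Ighv1-82, Arhgdig, Pcdh19, Zap70 and Ltbp1 (4.77, 4.71, 4.71, 4.69 and 4.68). The Mll4 log2 value of 1.80, on 4 UMIs, was under the minimum of 20 counts, and 8.19% of 8733 measured genes were at least 2-fold higher and 8.52% lower there.

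The B-cell progenitor-like cells of the libraries were not held by the same clusters. Clusters 21 to 24 held 6825 of the Mll3/4-labelled B cells and 3 cells of the other libraries, whose B cells lay mainly in clusters 0 and 16. Within Mll3/4-labelled cells the level was 118 CPM (114 to 123) in cluster 21, 77.4 CPM (74.2 to 80.7) in cluster 22, 97.6 CPM (93.4 to 102.0) in cluster 23 and 92.4 CPM (84.5 to 100.8) in cluster 24. Cells with a UMI of the division gene Mki67 made up 28.4%, 44.6%, 99.4% and 82.9% of these clusters, so the highest and the lowest Eya1 level were both in the clusters with fewer such cells. Between quartiles of these cells ordered by their division gene level, Eya1 stayed within 91.4 to 98.2 CPM. It went from 112.7 CPM in the quartile with the fewest UMIs per cell to 86.3 CPM in the quartile with the most. Markers of other cells differed between the libraries too. In the B class the 9 neutrophil markers summed to 2436 CPM in control, 1793 in the Mll3-labelled, 6358 in the Mll4-labelled and 78.1 in Mll3/4-labelled cells. Neutrophil-like cells of control and the single deletions held little or no Eya1. The 12 HSC/MPP markers summed in the B class to 64.4, 74.3, 101.1 and 246.2 CPM in the same order of libraries. The members differed: in the Mll3/4-labelled B cells Procr was at 0 and Hlf had 8 UMIs. Hoxa9 had 5519 and Meis1 3877 of the 18691 UMIs of the 12 markers there. The part of these markers in the Eya1 values was not tested.

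Counted per cell, 55.2% (54.0% to 56.4%) of Mll3/4-labelled B-cell progenitor-like cells had an Eya1 UMI, 26.3% had 2 or more and the highest cell had 12. The shares were 1.70% (0.736% to 3.32%) in control, 12.7% (9.51% to 16.6%) in the Mll3-labelled and 2.80% (0.767% to 7.01%) in Mll4-labelled cells, where median depths were 4389, 6497 and 2276 UMIs against 9936 in Mll3/4-labelled cells. With each cell thinned to 2000 UMIs the shares were 0.227%, 5.13%, 0 of 74 cells (which allows up to 4.05%) and 16.8%. The thinning left out 30, 18, 69 and 83 cells. The 86 other cells of the Mll3/4-labelled library serve as a comparison within that library, with 12 Eya1 UMIs, 6.87 CPM (3.55 to 12.0) and 6.98% of cells with a UMI (2.60% to 14.6%) at a median of 18663.5 UMIs. In HSC/MPP-like cells the shares were 14.5% in control, 26.6% in the Mll3-labelled and 12.5% in Mll4-labelled cells, and 2.04%, 4.20% and 5.95% after thinning, which left out 1, 2 and 6 cells. At equal depth the Mll4-labelled share was thus no longer below that of control. Cells with 2 or more UMIs made up 1.62% of control and 6.05% of Mll3-labelled HSC/MPP-like cells.

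**Figure D2:**
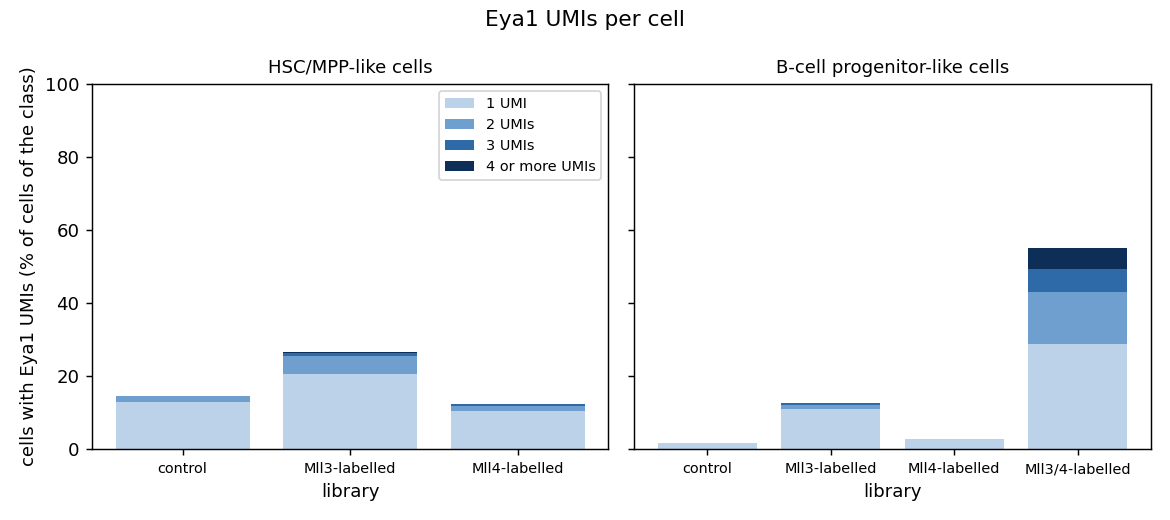
Share of HSC/MPP-like (left) and B-cell progenitor-like cells (right) with 1, 2, 3 or at least 4 Eya1 UMIs in each library with at least 50 cells of the class, as a percentage of the cells of the class, not thinned for depth. More than 1 UMI per cell was common only in the Mll3/4-labelled B cells, at 26.3%.

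Cells also carried 2 hashtag antibodies, whose meaning is not given in the sources used here, so the hashtags are not replicates. Among Mll3/4-labelled B-cell progenitor-like cells, Eya1 was at 106.8 CPM (103.6 to 110.1) under hashtag 1 and 82.0 CPM (79.0 to 85.1) under hashtag 2. These intervals did not overlap, so the 2 hashtags of that library differed by more than counting error. The levels of this class were 4.38 and 1.11 CPM in control, on 6 and 2 UMIs, and 22.2 and 15.2 CPM in Mll3-labelled cells. They were 5.96 and 16.6 CPM in the 4 UMIs of Mll4-labelled cells. Among HSC/MPP-like cells they were 11.2 and 10.4 CPM in control, 21.9 and 22.8 CPM in Mll3-labelled and 29.7 and 19.9 CPM in Mll4-labelled cells. The order of control, Mll3-labelled and Mll3/4-labelled cells was the same under both hashtags in the B class. In HSC/MPP-like cells the single deletions exceeded control under both. Under hashtag 2, the Mll4-labelled (12.3 to 30.4) and control (8.49 to 12.6) intervals of that class overlapped. Over all cells, Mll4-labelled cells were at 6.30 CPM under hashtag 1, against 3.20 CPM in control. Under hashtag 2 they were at 3.20 CPM (2.32 to 4.31) against 2.39 CPM (2.05 to 2.76), with overlapping intervals.

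Surface antibody gates gave the level without transcript clusters. B220, an isoform of CD45 on B-lineage cells, gave 2.61 CPM in control, 14.5 in the Mll3-labelled, 7.22 in the Mll4-labelled and 80.1 CPM in Mll3/4-labelled cells among positive cells. Among cells positive for CD150 and negative for CD48, the usual gate for stem cells, it was 8.29, 12.3, 17.8 and 99.4 CPM in that order, and among those positive for both it was 4.27, 5.18, 6.03 and 66.5 CPM (54.7 to 80.1 for the last). With CD117 (Kit) and Sca1 also positive it was 13.9 (10.2 to 18.5), 21.1 (17.2 to 25.6), 31.7 (16.9 to 54.2) and 104.8 CPM (92.6 to 118.2). The Mll3/4-labelled library had 200 cells in this gate and 332 in the gate on CD150 and CD48 alone. As only 86 cells of that library lay outside the B class, most cells in both gates were B-cell progenitor-like. The 200 cells had the level of that library's B cells. CD117-positive cells exceeded CD117-negative cells in control (3.41 against 1.26 CPM), in Mll3-labelled cells (5.49 against 3.61 CPM) and in Mll4-labelled cells (7.64 against 1.05 CPM). The Mll3/4-labelled library was at 93.1 CPM on both sides of that threshold. Within its B cells, Eya1 went from 109.9 CPM in the quartile with the least B220 to 85.3 CPM in the quartile with the most, and from 105.5 to 88.2 CPM over the quartiles of CD48. Depth differed along with B220, from a median of 8325 UMIs in its lowest to 11709.5 UMIs in its highest quartile, and its part was not tested. Over the quartiles of CD127, the IL-7 receptor, Eya1 went from 91.0 to 97.1 CPM, with depth from 8470 to 12180.5 UMIs.

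**Figure D3:**
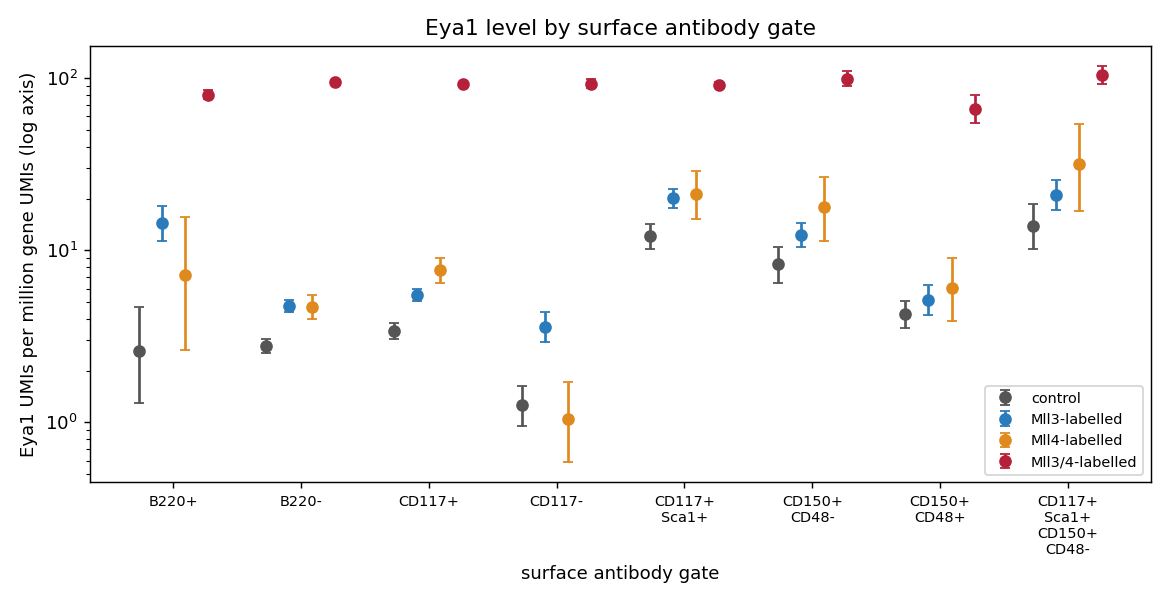
Eya1 UMIs per 1000000 gene UMIs (log axis) among cells gated by surface antibody counts, by library, with exact 95% Poisson intervals. Control runs from 1.26 CPM in CD117-negative cells to 13.9 CPM in the stem cell gate, while the Mll3/4-labelled library lies between 66.5 and 104.8 CPM in the gates shown. Most Mll3/4-labelled cells in the stem cell gate were B-cell progenitor-like.

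The other Eya genes did not share the pattern. Over all cells Eya2 was lower in every deletion library than in control, where it had 272 UMIs (1.77 CPM). It had 86 in the Mll3-labelled (0.632 CPM), 20 in the Mll4-labelled (0.610 CPM) and 5 in Mll3/4-labelled cells (0.0644 CPM). In control it was at 7.02 CPM in basophil/mast-like (7 UMIs), 6.39 CPM in HSC/MPP-like, 5.97 CPM in B-cell progenitor-like and 4.66 CPM in megakaryocyte-like cells, so that, unlike Eya1, its B-cell level was near its stem cell level. In HSC/MPP-like cells it was at 3.32 CPM (2.48 to 4.36) in Mll3-labelled cells, 1.92-fold (1.39 to 2.70) below control. It was at 4.22 CPM (2.25 to 7.22) in Mll4-labelled cells, an interval that holds the control level of 6.39 CPM. In B-cell progenitor-like cells it had 19 UMIs in control (5.97 CPM), 6 in Mll3-labelled cells (2.08 CPM), and none in the Mll4-labelled and Mll3/4-labelled libraries. With no UMI, the Mll4-labelled cells allow up to 8.42 CPM, above the control level, so no difference from control can be read there. For the Mll3/4-labelled cells, with 3 counts as the floor over the class, Eya2 was at least 151-fold lower than in control. Eya3 differed little, at 12.1, 11.9, 13.7 and 9.89 CPM over all cells and at 13.2, 11.5, 16.8 and 9.79 CPM in B-cell progenitor-like cells in the usual order of libraries. Eya4 had 88, 34, 11 and 1 UMIs over all cells, in libraries of unlike depth and cell types. In control, 85 of its UMIs were in erythroid progenitor-like cells, at 1.17 CPM. Those cells were at 0.422 CPM in the Mll3-labelled and 1.44 CPM in the Mll4-labelled library. The Mll3/4-labelled library had 2 such cells, so no Eya4 level can be compared there.

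**Figure D4:**
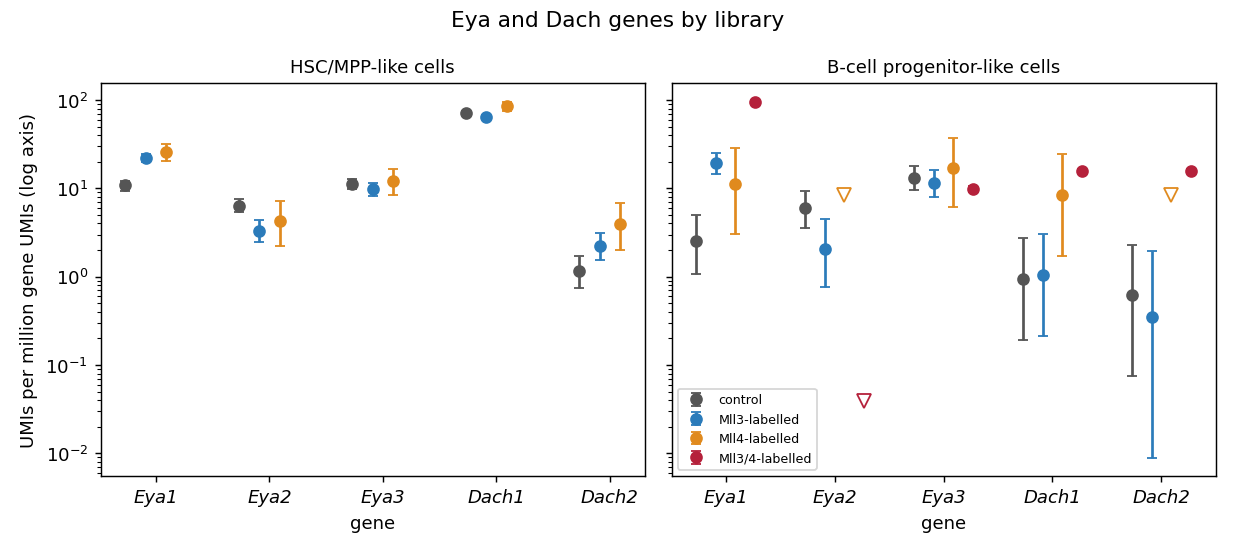
Eya1, Eya2, Eya3, Dach1 and Dach2 in HSC/MPP-like (left) and B-cell progenitor-like cells (right), as UMIs per 1000000 gene UMIs (log axis) with exact 95% Poisson intervals; open triangles mark genes with no UMI, at the level that 3 UMIs would give. In the B class of the Mll3/4-labelled library Eya1 is at 95.1 CPM while Eya2 has no UMI.

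Of 13 genes of the Pax-Six-Dach families, which encode partners of Eya proteins, 5 had enough counts over all cells. Among the homeodomain factors of the list, Six2, Six3, Six4 and Six6 had at most 1 UMI each in Mll3/4-labelled cells. Six5 had 2.53 CPM in control cells against 0.721 CPM in Mll3/4-labelled cells (log2 ratio -1.04). Within B-cell progenitor-like cells 4 of the 13 were measured, and 1 of these had at least 20 counts in control. Of the 4, 2 were at least 2-fold higher in Mll3/4-labelled cells and none lower, beside 9.46% and 7.39% of all genes. These 2 were the Dach genes, which encode corepressors of the network. Both passed the minimum only through the Mll3/4-labelled sum, 23.9 times as deep as control. Their folds rest on few control UMIs. Dach1 had 3 UMIs in control (0.943 CPM) and 1186 (15.6 CPM) in Mll3/4-labelled cells, 16.6-fold (5.66 to 80.5). Dach2 had 2 (0.629 CPM) and 1201 (15.8 CPM), 25.2-fold (6.95 to 208). Over all cells Dach2 was higher (log2 ratio 3.07) and Dach1 lower (-1.26). Control HSC/MPP-like cells held Dach1 at 72.0 CPM. In HSC/MPP-like cells Dach2 was at 1.17 CPM in control, 2.24 CPM in Mll3-labelled and 3.90 CPM in Mll4-labelled cells, 1.92-fold (1.12 to 3.34) and 3.34-fold (1.53 to 6.91) above control. Pax5, the B-lineage factor, had 246 CPM in control and 368 CPM in Mll3/4-labelled B-cell progenitor-like cells (0.58), and Pax8 had 1 UMI in Mll3/4-labelled cells.

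Of the 9 cofactor and substrate genes of Eya proteins, 8 were measured within B-cell progenitor-like cells and none was 2-fold apart from control, where 9.46% of all genes were higher and 7.39% lower. Their median log2 ratio was -0.32 beside 0.02 over all genes. Crebbp and Ep300, coactivators, had ratios of 0.00 and -0.04 there, and H2afx, the gene of the substrate H2AX, had -0.95. Over all cells Crebbp alone passed 2-fold (1.12), beside 12.0% of all genes higher and 11.7% lower. Genes reported as targets of Eya complexes were mixed: of 8, 4 were measured, and in the B class 1 was at least 2-fold higher and none lower. That gene was Slc12a2, a sodium-potassium-chloride cotransporter, at 10.4 CPM in control and 47.6 CPM in Mll3/4-labelled cells, 4.59-fold (3.26 to 6.67). Slc12a2 in the B class was at 4.86 CPM in Mll3-labelled cells, below control. Myc (0.80), Ezr (-0.03) and Ccnd1 (-0.70) stayed within 2-fold in the B class.

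Eya1 stood at the top of the stem cell genes, which is what it was picked for. Over all Mll3/4-labelled cells, 5 of the 28 listed stem cell genes were at least 2-fold higher (12.0% of all genes), 13 lower (11.7% of all genes) and 10 between, with a median log2 ratio of -0.81 beside -0.01 over all genes. The highest were Gprasp2 (2.27), Cdkn1c (2.24), which encodes the cell cycle inhibitor p57, and Ly6a (1.74), which encodes Sca-1. The lowest were the surface protein gene Cd34 (-4.94) and the transcription factor genes Gata2 (-4.75) and Hlf (-3.80). Within B-cell progenitor-like cells the picture differed: 16 of the 28 were measured, 9 of them with at least 20 counts in control as well. Of the 16, 8 were at least 2-fold higher and 2 lower, beside 9.46% and 7.39% of all genes, and 5 of the 8 also reached the minimum in control. The median was 1.05, and 0.89 with Tcf15, which had no UMI in control, at its bound. A gene that was measured only through the Mll3/4-labelled sum, 23.9 times as deep as control, had fewer than 20 UMIs in control. Its ratio rests on those few UMIs, and the minimum leans towards higher ratios among such genes. Hoxa9, a homeobox gene of stem cells, was at 3.14 CPM in control (10 UMIs), 10.1 CPM in Mll3-labelled (29 UMIs) and 72.7 CPM in Mll3/4-labelled cells, a log2 ratio of 4.15 in the last. Meis1, which encodes a Hox cofactor, was at 7.54, 9.72 and 51.1 CPM (2.61). Cd34 was again the lowest at -2.76 (6.29 CPM in control, 0.0790 CPM in Mll3/4-labelled cells), followed by Ptprj (-1.11) and Slamf1 (-0.41).

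**Figure D5:**
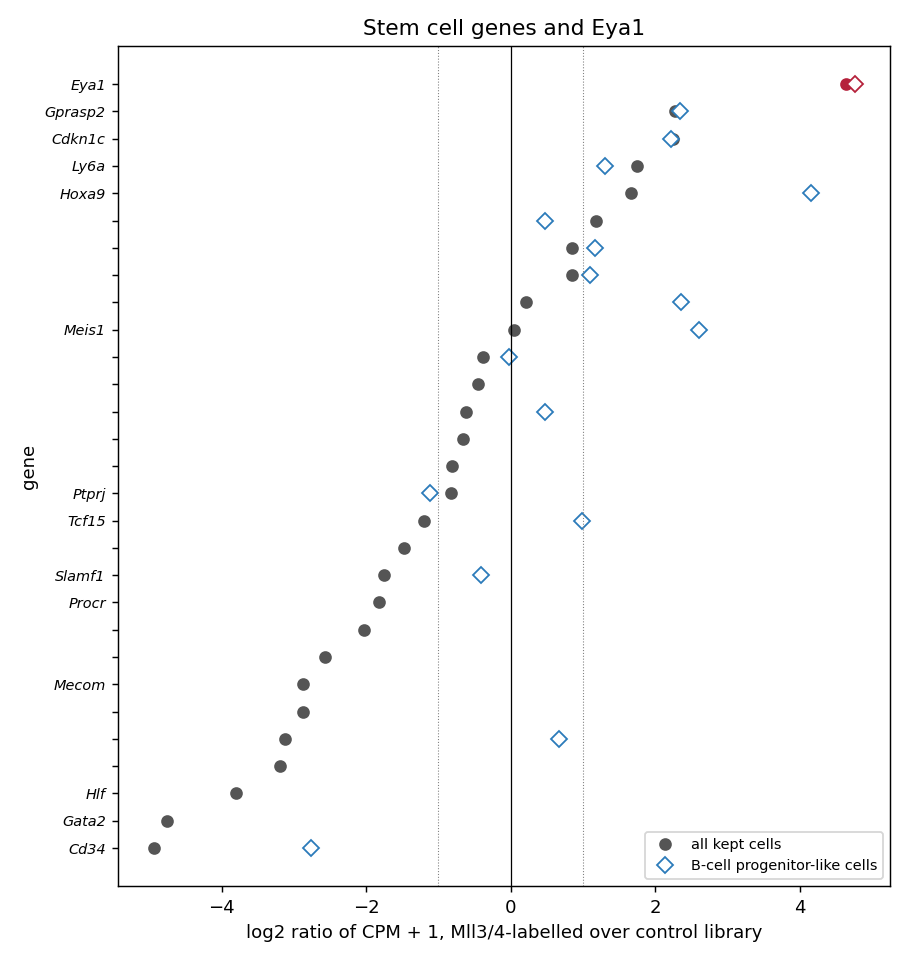
Log2 ratio of CPM + 1 of the Mll3/4-labelled over the control library for the 28 stem cell genes and Eya1 (red), over all kept cells (filled circles) and within B-cell progenitor-like cells (open diamonds, where measured); dotted lines mark 2-fold, and the genes named in the text carry their names. Eya1 is the highest in both, at 4.64 and 4.77, and Hoxa9 is the next in the B class at 4.15.

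The stem cell list was also read in the HSC/MPP-like class. In Mll3-labelled cells, none of the 28 was at least 2-fold higher and 1, Cdkn1c (-1.01), lower, beside 0.275% and 0.616% of all genes, with a median of 0.11. In the Mll4-labelled library 2 were higher, Gprasp2 (1.71) and Mecom (1.08), and none lower, beside 3.75% and 2.47% of all genes, with a median of 0.19 beside 0.16 over all genes.

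Eya1 is also known as a gene switched on by MLL1 fusion proteins, and a list of 18 genes held such targets together with Kmt2a itself and its cofactor gene Men1. In B-cell progenitor-like cells 14 of these were measured in Mll3/4-labelled cells, 8 of them with the minimum in control as well. Of the 14, 8 were at least 2-fold higher and none lower, beside 9.46% and 7.39% of all genes, and 2 of the 8 reached the minimum in control. The median of 1.99 rests on members measured only through the deeper Mll3/4-labelled sum. Hoxa9 (4.15), Hoxa10 (3.87, with 0 UMIs in control and 1031 in Mll3/4-labelled cells, at least 14.4-fold with 3 counts as the floor over the class) and Pbx3 (2.95) were the highest. Cdk6 (-0.89), Bcl2 (-0.52) and Kmt2a (-0.32) were the lowest. Control B cells held Kmt2a at 223 CPM and Mll3/4-labelled B cells at 179 CPM. Over all cells, where Kmt2a was at 91.6 and 176.8 CPM, 16 of 18 were measured. Of these, 8 were higher and 4 lower, beside 12.0% and 11.7% of all genes, with a median of 1.02 beside -0.01. Zfp521 (2.56), Hoxa5 (2.19) and Hoxa7 (2.06) were the highest there and Runx2 (-3.60), Mecom (-2.87) and Cdk6 (-1.58) the lowest. In Mll3-labelled B-cell progenitor-like cells, 9 were measured and Hoxa9 alone was at least 2-fold higher (1.42), 3.20-fold (1.52 to 7.37). None was lower, beside 0.417% of all genes higher and 1.89% lower.

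The B-cell stage of the cells was read beside Eya1. Of 20 stage genes 18 were measured in the B class, 4 at least 2-fold higher in Mll3/4-labelled cells and 2 lower, beside 9.46% and 7.39% of all genes. The higher ones were Enpep (3.39), the BP-1 antigen of B precursors, Foxo1 (1.98), Il7r (1.41) and Kit (1.17). Igkc (-2.14) and Cd74 (-2.03), genes of later B cells, were lower, and Vpreb3 had -0.97. The same 18 genes were all within 2-fold of control in Mll3-labelled B cells. Of all genes measured there, only 0.417% were at least 2-fold higher and 1.89% lower, so most lists would stay within 2-fold. Of 8 division genes, 1 was at least 2-fold lower in the Mll3/4-labelled B cells and none higher, with a median of -0.74. What stage, division or cluster contributes to the Eya1 difference was not tested beyond these values.

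None of the genes around Eya1 on chromosome 1 with enough counts was at least 2-fold higher in the Mll3/4-labelled B class, beside 9.46% of all genes. With so few neighbours measured, this does not set them apart from other genes. Of 31 annotated genes within 1000000 bases, 9 were in the feature lists. The nearest on one side, Gm9947 and Msc, had no UMI and at most 1 UMI in any library. Xkr9, the nearest on the other side, had at most 3 UMIs. The next ones with clear expression were, in control and Mll3/4-labelled B-cell progenitor-like cells, Lactb2 at 9.11 and 15.4 CPM, Tram1 at 128.5 and 116.6 CPM and Ncoa2 at 55.0 and 47.3 CPM. Each stayed within 2-fold, with log2 ratios of 0.70, -0.14 and -0.21. Trpa1, beyond Msc, was at 2.20 CPM in control (7 UMIs) and 1.16 CPM in Mll3/4-labelled B cells (88 UMIs), a log2 ratio of -0.57. Over all cells the Trpa1 ratio was 1.04.

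The genes with a pattern most like that of Eya1 were sought over 24 sums of a class in a library with at least 50 cells, by Pearson correlation of log2(CPM + 1) over 13687 genes. The points share libraries and depth, and 1 point, the Mll3/4-labelled B class, lies far above the others. Among the 10 most alike were Trpm4 (0.93), a cation channel gene, Sgce (0.91), Inppl1 (0.90), Gm50232 (0.89), Gprc5b (0.88), Dst (0.88), Mir99ahg (0.87), Ap5s1 (0.86) and Smad5 (0.85). Without the Mll3/4-labelled library 5 of the 10 were still among the 10 most alike, including Gm50232, Trpm4, Sgce and Ap5s1 at 0.91, 0.91, 0.90 and 0.89 over 23 points. With Spearman correlation 5 were kept as well.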

How the data were processed

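The deposited matrices hold raw UMI counts that the authors made with Cell Ranger 6.1.2 on mm10, per the submitters' processing notes. The annotation release and cell-calling settings are not given in the sources used here. Per library there were 36413830 to 174795636 gene UMIs in 6622 to 10001 barcodes. Barcodes with at least 500 genes, 1000 gene UMIs and at most 10% mitochondrial UMIs were kept, and the highest Scrublet scores were removed at 0.8% per 1000 barcodes (scanpy 1.11.5). Clusters (Leiden) were made without Eya1, Xist, Y-linked and mitochondrial genes, and named from marker lists. Counts were not corrected for free RNA. CPM has exact Poisson intervals, folds conditional binomial and shares Clopper-Pearson intervals, at the 95% level for counting error only. Log2 ratios carry a pseudocount of 1 CPM, and genes needed 20 counts in either library. Antibody thresholds came from the control library. The trimmed mean scaling of edgeR 4.0.16 was an alternative. The ratio code was tested on simulated counts.

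Eya1, the gene lists and the markers were chosen with earlier results of these data known. Named genes were Eya1, the Eya family, the 3 highest and 3 lowest members of each list by Mll3/4 ratio, the chromosomal neighbours, the 10 genes most alike and the 5 genes on either side of Eya1 in rank. Other genes named were chosen after their values were seen. Of 32285 gene identifiers, 32158 matched GENCODE M21. Some genes that this rule names are not reported here.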

Additional observations from a re-analysis of the deposited data

How the results depend on the processing

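The log2 ratios of Eya1 over all cells, B-cell progenitor-like and HSC/MPP-like cells were recomputed under 84 alternatives in all, of which 75 moved by less than counting error, 8 moved further and 1 reversed. For the Mll3-labelled library over all cells, 0.69 became 1.03 with the mean share per cell and 0.99 with cells thinned to 2000 UMIs. For the Mll3/4-labelled library, 4.64 became 5.02 with a pseudocount of 0.1 CPM, 4.30 with the mean share and 4.44 with thinning. In B-cell progenitor-like cells, thinning took the Mll3 ratio from 2.52 to 3.79 (20 against 1 UMIs), while gating on B220 gave 2.10 and on marker transcripts 1.65, and the Mll4 ratio from 1.80 to -1.09 (0 against 1 UMIs in 74 and 441 cells), so its direction is not settled at this depth. The Mll3/4 ratio of that class stayed between 4.24 and 5.52. In place of the HSC/MPP-like clusters, the CD150-positive CD48-negative gate gave 0.52 for the Mll3-labelled library (0.98 by clusters), and thinning gave 1.59 for the Mll4-labelled library (1.18). Leaving out cluster 0 or 16 from the B class, added after seeing the data, gave 2.28 and 2.78 for the Mll3-labelled and 4.96 and 4.53 for the Mll3/4-labelled library. Leaving out the finer cluster that control nearly lacks from the HSC/MPP-like cells, also added, gave 1.05 for the Mll4-labelled library. The cause of these differences was not tested. Unthinned shares of cells with a UMI moved from those at 2000 UMIs in B-cell progenitor-like, HSC/MPP-like and erythroid progenitor-like cells, and not in neutrophil-like cells of control and the Mll4-labelled library.

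The number of genes at least 2-fold higher in B-cell progenitor-like cells was 37 in the Mll3-labelled library, 8 with at least 100 counts and 199 with no minimum. In the Mll4-labelled library it was 715, against 173, 1907, and 326 with trimmed mean scaling. In HSC/MPP-like cells it was 33 in the Mll3-labelled library (19 with at least 100 counts) and 447 in the Mll4-labelled library (195 with trimmed mean scaling). No paired analysis was possible because each group has 1 library.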

Other observations

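Some cells with Eya1 UMIs belong in no class comparison above. Cluster 5, which stayed unnamed and is led by the monocyte genes F13a1 and Ccr2, was at 1.68 CPM in control (13 UMIs), 5.59 CPM in the Mll3-labelled (30 UMIs) and 5.66 CPM in the Mll4-labelled library (20 UMIs), 3.33-fold (1.69 to 6.96) and 3.38-fold (1.60 to 7.38) above control.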
